A study of Mus musculus with 6 samples.

Results

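The epidermal growth factor (EGF) family was examined in RNA-seq of organoids grown from mouse intestine, in which epithelial cells arrange themselves into crypt-like structures. The members were 10 genes of 24956 in the deposited table, taken by gene symbol: the 7 ligand genes Egf, Areg, Ereg, Hbegf, Tgfa, Btc and Epgn and the 3 receptor genes Egfr, Erbb2 and Erbb3. Organoids kept in low glutamine medium (3 libraries) were compared with organoids kept in control medium (3 libraries). Both groups carried the Apc Min genotype, in which Apc, a brake on Wnt/beta-catenin signalling, carries a truncating mutation. By its title, the series concerns alpha-ketoglutarate, Wnt signalling and differentiation in colorectal cancer. The sources used here do not give glutamine concentrations, treatment time, intestinal segment or animals. The submitters describe replicates as biological without saying what separates them, so p-values measure only the spread between these libraries.

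EGF family ligands are made as membrane-anchored precursors, and proteases cut them free to act on the same or on neighbouring cells. Ligand binding pairs the receptors, which switch on the RAS-MAPK and PI3K-AKT cascades. ErbB2 binds no known ligand of its own and acts as a partner, and ErbB3 has little kinase activity and signals mainly through such partners. In the intestinal crypt, EGF from Paneth cells and from the surrounding tissue supports proliferation of stem cells, and recombinant EGF is a usual component of organoid medium.

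Values are RPKM, a read number scaled by the authors to transcript length and library depth, so that levels of different genes can be set side by side. Genes that averaged 1 RPKM or more across all 6 libraries were tested with limma on log2(RPKM + 1). A gene was called where the Benjamini-Hochberg adjusted p was under 0.05. Of the 10 members 7 were tested and all 7 of these were called, 4 higher (Hbegf, Btc, Egfr and Erbb3) and 3 lower (Areg, Tgfa and Erbb2) in low glutamine. This stands against 66.4% of all 11082 genes tested, 36.1% called higher and 30.3% called lower. Leaving out low glutamine replicate 1, low glutamine replicate 2 or control replicate 2 left 1 member, Areg, called lower. All tested genes had a median log2 fold change of 0.03, and 54.4% of calls were higher. After every library had been brought to the same sum these were 0.14 and 69.0%, so small changes are relative to the scaling. Ereg, Epgn and Egf were below the limit and were not tested there. In bulk RNA, fewer cells of a type and less RNA per cell cannot be told apart.

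**Figure D1:**
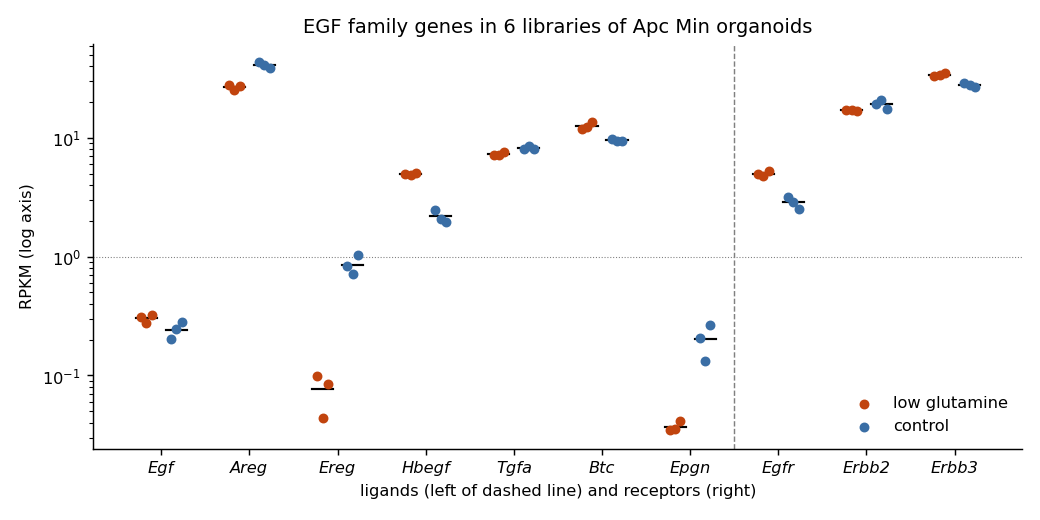
RPKM on a log axis of the 7 ligand genes and 3 receptor genes in each library, with 3 low glutamine points beside 3 control points per gene and a bar at each group mean. The dotted line marks 1 RPKM. Ereg and Epgn lie far below control in low glutamine, and Areg, Erbb2 and Erbb3 are the highest genes in both groups.

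The groups differed widely beyond these genes. Across genes, which are not independent, Pearson correlations of log2 values were 0.996 to 0.998 for libraries of the same group and 0.922 to 0.927 for libraries of different groups, at estimated depths of 28.2 to 34.0 M (mega) reads in low glutamine and 24.4 to 35.3 M reads in control. Xist, which silences an X chromosome, averaged 0.0286 RPKM in low glutamine and 87.3 RPKM in control. The Y-linked Eif2s3y averaged 27.7 RPKM in low glutamine and was listed at 0 in every control library. The groups therefore came from cells of different sex, and so from different animals. In any result given here, the medium cannot be told apart from sex or from other differences between those animals or their organoids. None of the 10 members is on a sex chromosome, which does not remove this limit. Markers of cell types moved too. The summed RPKM of 12 Paneth cell markers was 6911 to 7702 in low glutamine and 2529 to 2682 in control, with 11 of 11 tested called higher. That of 9 stem cell markers was 1461 to 1635 in low glutamine and 742 to 807 in control, all 9 higher. That of 12 enterocyte markers was 901 to 1001 in low glutamine and 3675 to 3953 in control, with 10 lower and 2 higher. Goblet cell markers summed to 522 to 594 in low glutamine and 1104 to 1331 in control (8 of 9 lower), and enteroendocrine markers to 1199 to 1372 in low glutamine and 293 to 308 in control (7 of 8 higher, 1 lower). Of the 4 tested tuft cell markers 3 were higher and 1 was lower (sums 9.16 to 9.82 in low glutamine and 5.62 to 6.59 in control). Of 7 epithelial markers, with sums of 2431 to 2513 in low glutamine and 1928 to 2089 in control, 4 were higher and 3 lower. The 11 stromal and endothelial markers summed to 0.409 to 0.578 in low glutamine and 0.475 to 0.561 in control, with 2 of them at 0 throughout. The 9 immune markers summed to 2.61 to 2.67 in low glutamine and 1.95 to 2.12 in control, also with 2 at 0. The part of cell composition in the results on the members was not tested.

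Areg, Ereg, Epgn and Btc lie within 375 kb on chromosome 5 (GRCm38.p6, the mm10 build, RefSeq gene bounds counted from 1). Epgn spans 91027517 to 91035212, Ereg 91074617 to 91093649 and Areg 91139599 to 91148432, all on the plus strand, and Btc spans 91357261 to 91402994 on the minus strand. The bases before the annotated start of Areg, Epgn and Btc are shown because these neighbours did not all move the same way. Areg and Epgn were lower and Btc was higher in low glutamine, and any part of these bases in that was not tested. Each sequence covers the 250 bases before the RefSeq start (GRCm38.p6), on the strand of the gene, at chr5:91139349-91139598 for Areg, chr5:91027267-91027516 for Epgn and chr5:91402995-91403244 for Btc. Capitals mark a match to any of 5 motifs searched on both strands.
Areg: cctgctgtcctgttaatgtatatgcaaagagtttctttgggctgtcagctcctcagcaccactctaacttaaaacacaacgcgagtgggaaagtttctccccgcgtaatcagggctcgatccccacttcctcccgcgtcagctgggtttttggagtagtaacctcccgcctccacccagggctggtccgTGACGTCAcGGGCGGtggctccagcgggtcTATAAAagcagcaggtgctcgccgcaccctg
Epgn: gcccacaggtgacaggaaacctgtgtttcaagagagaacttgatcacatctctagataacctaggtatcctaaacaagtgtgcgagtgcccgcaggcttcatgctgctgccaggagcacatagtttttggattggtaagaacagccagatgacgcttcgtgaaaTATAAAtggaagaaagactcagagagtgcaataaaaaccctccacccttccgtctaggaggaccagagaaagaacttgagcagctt
Btc: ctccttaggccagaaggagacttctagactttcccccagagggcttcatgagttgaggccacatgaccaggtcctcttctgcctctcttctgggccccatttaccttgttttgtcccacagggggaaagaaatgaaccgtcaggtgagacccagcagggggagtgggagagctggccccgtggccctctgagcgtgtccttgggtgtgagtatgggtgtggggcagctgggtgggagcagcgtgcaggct
The motifs were the CRE (cyclic AMP response element) TGACGTCA, the AP-1 site TGANTCA, the TCF/LEF core CTTTGNT, the GC box GGGCGG and the TATA box TATAAA. In all 32851 RefSeq windows of this length, 1.55% held the CRE, 6.75% the AP-1 site, 16.0% the TCF/LEF core, 32.7% the GC box and 12.4% the TATA box. Areg held a CRE that begins at -61, a GC box at -52 and a TATA box at -31, counted from the annotated start. Epgn held TATAAA at -86, which is farther from the start than in Areg, and the Btc window held no match. No 2 of these matches overlapped.

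Areg, amphiregulin, was the highest ligand gene in both groups. It measured 28.1, 25.2 and 27.5 RPKM in the low glutamine libraries, against 43.3, 41.2 and 39.0 RPKM in the control libraries. The groups did not overlap, as held for 70.2% of all genes tested. Areg fell by 0.60 on the log2 scale (95% interval -0.73 to -0.46, limma adjusted p = 2.6e-06), to 0.654 of the control mean, and 9.11% of all tested genes fell further.

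Ereg, epiregulin, lies next to Areg and encodes a ligand of EGFR and ErbB4. Its values were 0.0995, 0.044 and 0.0856 RPKM in low glutamine, against 0.829, 0.71 and 1.04 RPKM in control. Every low glutamine value was far under every control value, and the low glutamine mean was 11.3-fold lower, the widest gap in this family. With a transcript of 4128 bases (GENCODE M21) and the estimated depths, these levels correspond to 14.0, 5.98 and 9.96 reads in low glutamine and to 106, 104 and 105 reads in control. Ereg was under the limit for testing; with every gene above 0 in some library included, it had an adjusted p of 2.4e-04 by limma (log2 fold change of RPKM + 1 of -0.79, which understates a change at this level). For a single gene, 3 libraries against 3 cannot give an exact permutation p under 0.1, the value Ereg had (two-sided).

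Epgn, epigen, the outermost of these neighbours, was close to the limit of detection. It stood at 0.0345, 0.0356 and 0.0415 RPKM in low glutamine, against 0.207, 0.133 and 0.264 RPKM in control, a 5.41-fold lower mean. On the longer of its transcripts (1760 bases) this is 2.06 reads in each low glutamine library and 8.24 to 11.4 reads in the control libraries, and on the shorter (805 bases) 0.943 to 0.944 and 3.77 to 5.19 reads. The groups did not overlap, and with no limit on level the adjusted p was 0.0064 (limma, log2 fold change of RPKM + 1 of -0.21).

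Btc, betacellulin, at the far end of the cluster, went the other way. It measured 11.9, 12.3 and 13.5 RPKM in low glutamine, against 9.72, 9.49 and 9.37 RPKM in control. It rose by a log2 fold change of 0.36 (0.24 to 0.49, limma adjusted p = 1.0e-04), and all low glutamine values were above all control values.

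Within 500 kb on either side of the cluster the table listed 18 genes, of which 5 were tested, Areg and Btc among them. The others were Mthfd2l, a mitochondrial folate enzyme just before Epgn, called higher (3.44 and 2.52 RPKM, low glutamine and control), and Rassf6 (9.38 and 12.1 RPKM) and Parm1 (9.57 and 10.7 RPKM), both called lower. Gm19619, a predicted non-coding gene between Areg and Btc, averaged 0.0578 RPKM in low glutamine and 0.934 RPKM in control, a 16.2-fold lower mean below the limit for testing. Gm19619 was singled out after its values were seen. Cxcl1, also in the window, not tested and likewise singled out after its values were seen, went the other way. It averaged 0.727 RPKM in low glutamine and 0.0144 RPKM in control. Its control libraries stood at 0, 0 and 0.0431 RPKM, close to the limit of detection, so its fold is imprecise. Of the 5 genes from Epgn to Btc, Epgn, Ereg, Areg and Gm19619 were thus lower and Btc was higher in low glutamine. The sizes of these differences varied, and only Areg and Btc were tested.

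**Figure D2:**
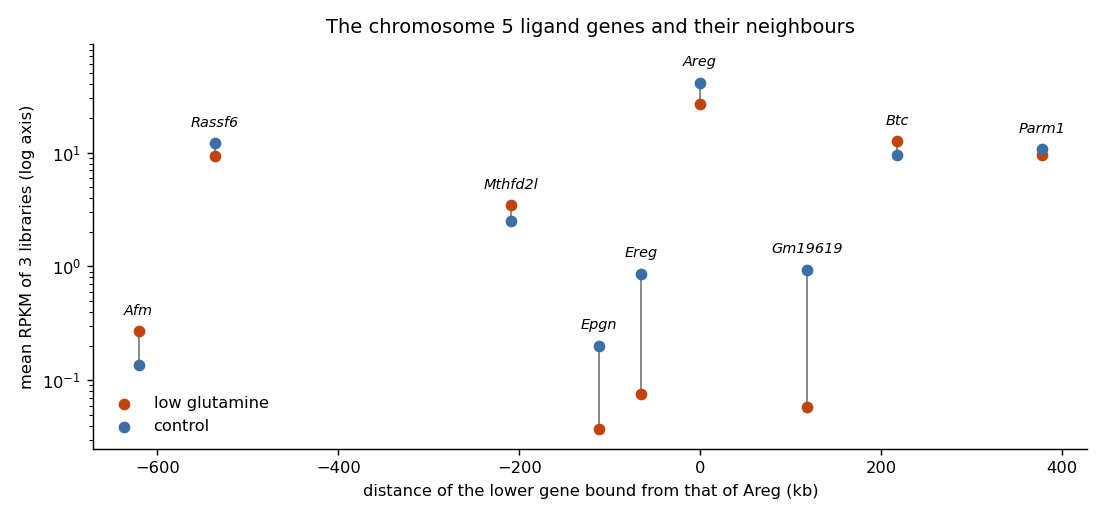
Mean RPKM of 3 low glutamine and 3 control libraries on a log axis, against the distance in kb of each gene's lower bound from that of Areg on chromosome 5; genes with a mean above 0.03 RPKM in both groups are drawn. Epgn, Ereg, Areg and Gm19619 are lower in low glutamine, and Btc and Mthfd2l are higher.

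Hbegf, heparin-binding EGF-like growth factor, a membrane-anchored ligand of EGFR and ErbB4, had the largest rise among the tested members. Hbegf (chromosome 18, 36504927 to 36515805) measured 5.01, 4.86 and 5.07 RPKM in low glutamine, against 2.48, 2.09 and 1.98 RPKM in control. The means differed 2.28-fold, and the log2 fold change was 0.91 (0.77 to 1.06, limma adjusted p = 1.2e-07), with 4.88% of all tested genes rising more. It was 0.47 with a pseudocount of 5, and stayed past the threshold in all 15 other settings.

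Tgfa, transforming growth factor alpha (chromosome 6, 86195038 to 86275744), differed little. Its values were 7.21, 7.21 and 7.55 RPKM in low glutamine, against 8.09, 8.54 and 8.07 RPKM in control. The log2 fold change was -0.15 (-0.26 to -0.04, limma adjusted p = 0.022). The call was lost with libraries rescaled to a common sum (-0.04, adjusted p = 0.39) and without low glutamine replicate 1 (adjusted p = 0.096), low glutamine replicate 2 (0.066) or control replicate 2 (0.11), over a range of adjusted p from 0.0021 to 0.78.

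Egf itself (chromosome 3, 129677574 to 129755322) was low in both groups. It measured 0.313, 0.279 and 0.325 RPKM in low glutamine, against 0.201, 0.248 and 0.282 RPKM in control, and the groups overlapped. With no limit on level the limma adjusted p was 0.097 (log2 fold change of RPKM + 1 of 0.07), and the two-sided exact permutation p was 0.2. Paneth cell markers were higher in the same low glutamine libraries, as given above.

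The make-up of the ligand transcripts, which a single scaling factor per library cannot change, shifted from Areg towards Btc and Hbegf. Areg supplied 53.3%, 50.5% and 50.9% of the summed ligand RPKM in low glutamine, against 66.8%, 66.0% and 65.0% in control. Btc supplied 24.1% ± 1.22 in low glutamine and 15.3% ± 0.311 in control (SD, n = 3 each), and Hbegf 9.55% ± 0.18 and 3.50% ± 0.291. The share of Tgfa differed less, at 14.0% ± 0.384 in low glutamine and 13.2% ± 0.636 in control. The share of Ereg was 0.145% in low glutamine and 1.38% in control, that of Epgn 0.0713% and 0.324%, and that of Egf 0.585% and 0.392%. Summed over the 7 ligands the level was 52.7, 49.9 and 54.0 RPKM in low glutamine, against 64.8, 62.4 and 60.0 RPKM in control. The Hbegf to Areg ratio was 0.179, 0.193 and 0.184 in low glutamine, against 0.0574, 0.0508 and 0.0508 in control, a difference of 1.81 on the log2 scale. The Areg to Ereg ratio was 282, 572 and 321 in low glutamine, against 52.2, 58.0 and 37.5 in control, and the few Ereg reads limit its precision. For each share, sum and ratio the groups did not overlap, and each had an exact permutation p of 0.1 (two-sided), the smallest that 3 libraries against 3 allow. Among all genes tested, the levels of 70.2% did not overlap. The shares are parts of the same sum, so they are not separate results.

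**Figure D3:**
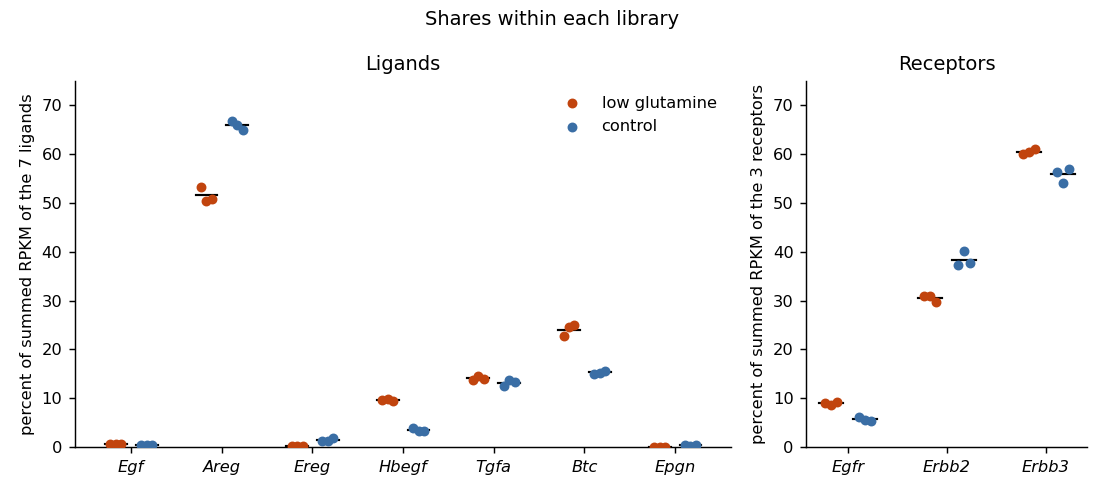
Percent of the summed RPKM of the 7 ligands (left) and of the 3 receptors (right) that each gene supplied in each library, with low glutamine points left of control points and a bar at each group mean. Areg supplies 50.5% to 53.3% of ligand RPKM in low glutamine and 65.0% to 66.8% in control.

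Egfr, the EGF receptor and the target of all 7 ligands, was the lowest of the 3 receptor genes and the one that changed most. Egfr (chromosome 11, 16752203 to 16913907) measured 4.96, 4.76 and 5.29 RPKM in low glutamine, against 3.19, 2.90 and 2.53 RPKM in control. All low glutamine values were above all control values, and the means differed 1.74-fold. The log2 fold change was 0.64 (0.48 to 0.79, limma adjusted p = 5.5e-06), and 0.35 with a pseudocount of 5.

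Erbb3 was the most abundant receptor gene in both groups. Erbb3 (chromosome 10, 128567523 to 128589635) measured 33.4, 33.6 and 35.0 RPKM in low glutamine, against 29.0, 28.0 and 26.9 RPKM in control. It rose without overlap by a log2 fold change of 0.27 (0.16 to 0.39, limma adjusted p = 5.8e-04).

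Erbb2 (chromosome 11, 98412484 to 98437716) was nearly level. Its values were 17.2, 17.2 and 17.0 RPKM in low glutamine, a narrow band, against 19.2, 20.7 and 17.7 RPKM in control. The log2 fold change of -0.15 (-0.28 to -0.02, limma adjusted p = 0.039) was just past the threshold. It was not past it with libraries rescaled to a common sum (-0.03, adjusted p = 0.60), after quantile normalization (0.12), with no limit on level (0.070), or with any 1 library other than control replicate 3 left out (0.070 to 0.21), and the adjusted p ran from 0.0076 to 0.93 over 15 settings.

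Relative to each other the receptors differed between the groups. Egfr stood at 0.289, 0.276 and 0.311 of Erbb2 in low glutamine, against 0.166, 0.140 and 0.143 in control, a difference of 0.97 on the log2 scale. The Erbb3 to Erbb2 ratio was 1.94, 1.95 and 2.06 in low glutamine, against 1.51, 1.35 and 1.51 in control. Egfr made up 8.92% ± 0.339 of summed receptor RPKM in low glutamine and 5.73% ± 0.437 in control, Erbb2 30.6% ± 0.759 and 38.4% ± 1.55, and Erbb3 60.5% ± 0.499 and 55.9% ± 1.47 (SD, n = 3 each). The receptor sum was 55.5, 55.6 and 57.3 RPKM in low glutamine, against 51.3, 51.6 and 47.1 RPKM in control. None of these ratios, shares and sums overlapped between groups, again at the exact permutation p of 0.1 (two-sided). The levels of 70.2% of all genes tested did not overlap either, and shares of the same sum move together.

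**Figure D4:**
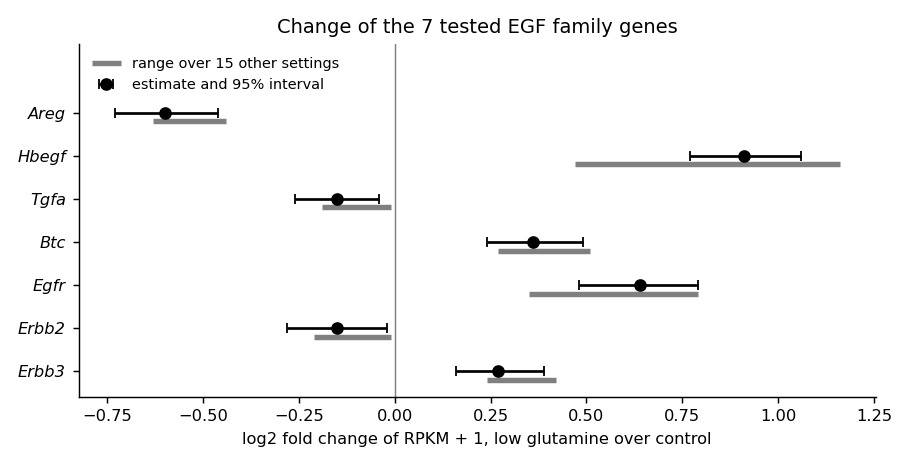
Log2 fold change of RPKM + 1, low glutamine over control, of the 7 tested members, with the 95% interval (black) and the range over 15 other settings (grey). Hbegf, Egfr, Btc and Erbb3 are above 0 and Areg below 0 throughout, while Tgfa and Erbb2 come up to -0.01.

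Ordered by level, the low glutamine libraries ran from Erbb3 through Areg, Erbb2, Btc and Tgfa to Egfr and Hbegf, whose values overlapped (means 5.01 and 4.98 RPKM), and then to Egf, Ereg and Epgn. In control libraries Areg led (mean 41.2 RPKM), followed by Erbb3, Erbb2, Btc, Tgfa, Egfr, Hbegf, Ereg, Egf and Epgn, of which Egf and Epgn overlapped. Areg and Erbb3 thus exchanged the top place.

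The genes whose pattern over the 6 libraries was most like that of a member, by the root mean square difference of gene-centred log2 values, were as follows; a like size of log2 change is fixed by this choice. Acox3 and Dio1 were nearest to Areg (differences 0.025 and 0.0276), Adcy1 and Tns3 to Hbegf (0.0226 and 0.0336), and Tom1l2 and Ubxn2a to Tgfa (0.009 and 0.0137). Zbtb38 and Fermt1 were nearest to Btc (0.0136 and 0.014), Il11ra1 and Reep5 to Egfr (0.0213 and 0.0274), Glmp and Rbck1 to Erbb2 (0.014 and 0.016), and Kif11 and Tln1 to Erbb3 (0.0094 and 0.014).

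Of the other members of the wider ErbB family, Erbb4, the remaining receptor, was listed at 0 in every library. Nrg4, a neuregulin that binds ErbB4, was lower, at 0.716, 0.837 and 0.887 RPKM in low glutamine, against 2.27, 2.08 and 2.22 RPKM in control (log2 fold change -0.81, limma adjusted p = 3.6e-07). Nrg1, a ligand of ErbB3 and ErbB4, was under the limit, at 0.0978, 0.101 and 0.168 RPKM in low glutamine, against 0, 0.0134 and 0 RPKM in control. Receptor transcripts were thus those of Egfr, Erbb2 and Erbb3, and Erbb4 was not detectable at this depth.

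Around the receptors, 7 lists with 95 genes were examined, of which 82 were tested, 36 higher, 21 lower and 25 not past the test, or 69.5% called, near the 66.4% of all genes. Their median log2 fold change was 0.09, beside 0.03 for all tested genes. The counts for each list below stand against 36.1% of all tested genes called higher and 30.3% called lower. Rescaling to a common sum raised the number of all tested genes called higher from 4001 to 5676.

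Genes that release the ligands were mixed: of 12 tested, 3 rose, 5 fell and 4 did not pass (median -0.05). The balance turned with the scaling, to 5 higher and 3 lower after rescaling to a common sum and to 7 and 3 when Rn45s was left out of that sum. Adam8 and Adam12 were under the limit for testing. Adam8 averaged 1.79 RPKM in low glutamine and 0.0717 RPKM in control, without overlap, and Adam12 was barely detected. Adam17, the main sheddase of Areg, Hbegf and Tgfa, fell modestly, to 8.27, 8.49 and 9.30 RPKM in low glutamine, against 10.1 ± 0.107 RPKM in control (SD, n = 3; log2 fold change -0.20, limma adjusted p = 0.0061), and was not called with libraries rescaled to a common sum (-0.09). Adam10, the main sheddase of Egf and Btc, measured 42.6 ± 1.92 RPKM in low glutamine and 44.2 ± 1.45 RPKM in control and did not pass (limma adjusted p = 0.41). Its direction followed the scaling: it was called lower with median-of-ratios scaling (-0.09, adjusted p = 0.023) and higher after quantile normalization (0.09, adjusted p = 0.021) and after rescaling without Rn45s (0.10, adjusted p = 0.015). Among partners of Adam17, Frmd8 was lower (6.40 and 10.9 RPKM, low glutamine and control) and Rhbdf1 higher (8.51 and 4.79 RPKM). The Adam10 partner Tspan15 fell by 0.43 and Adam15 by 0.48, and the protease Bace1 rose by 0.78. Rhbdl2, a rhomboid protease, was at 1.84 and 1.49 RPKM (0.19, limma adjusted p = 0.034), and at -0.02 after quantile normalization; its call was lost in 8 of 15 other settings.

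Genes listed as regulators of the receptors also moved both ways, with 6 of 15 higher, 4 lower and 5 not past the test (median 0.07). Lrig1, which promotes degradation of ErbB receptors and is also a stem cell marker, measured 60.3, 60.1 and 62.3 RPKM in low glutamine, against 38.4, 39.2 and 35.6 RPKM in control (log2 fold change 0.68, limma adjusted p = 3.4e-07). Errfi1, a feedback inhibitor of the EGFR kinase, rose by 0.38, the ubiquitin ligase gene Cblb by 0.65 and Socs5 by 0.52. Lrig3, a relative of Lrig1, fell by 0.47 and Tob1 by 0.67. Cblc stood at 12.8 ± 1.24 RPKM in low glutamine and 15.2 ± 1.79 RPKM in control (SD, n = 3 each) with overlapping groups (-0.23, limma adjusted p = 0.031), and its call was lost in 8 of 15 other settings (adjusted p up to 0.46). After either rescaling to a common sum 9 genes of this list were higher and 2 lower.

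Negative regulators of the RAS-ERK cascade were mostly higher: 9 of 11 tested rose, 1 fell and 1 did not pass, with a median of 0.56. Of all genes tested, 36.1% were called higher. Spry1, a Sprouty inhibitor, measured 6.19, 5.70 and 5.41 RPKM in low glutamine, against 2.68, 2.48 and 2.25 RPKM in control (log2 fold change 0.96, limma adjusted p = 7.1e-08). Spry2 and the ERK phosphatase gene Dusp6 both rose by 0.37, Spred1 by 0.65 and Rasal2 by 0.68. The exception was Dusp5, a nuclear ERK phosphatase, which was 3.11 RPKM in low glutamine and 6.36 RPKM in control (-0.84).

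Genes commonly induced by ERK signalling showed 8 of 14 tested higher, 0 lower and 6 not past the test (median 0.45). All 14 were called higher after either rescaling to a common sum. The same rescalings called 5676 and, without Rn45s, 6021 of all 11082 tested genes higher, against 4001 before. Etv4, an ETS factor, measured 14.0, 13.0 and 14.4 RPKM in low glutamine, against 3.72, 3.85 and 3.90 RPKM in control (log2 fold change 1.62, limma adjusted p = 9.3e-11). Its relative Etv5 rose by 0.65, the urokinase receptor gene Plaur by 2.04 and Ier3 by 1.85. Egr1, an immediate early gene, averaged 12.9 RPKM in low glutamine and 11.7 RPKM in control and did not pass (0.13, adjusted p = 0.073), though it did in a fit blocked on replicate number (adjusted p = 0.041; 9.7e-04 at the lowest with rescaling without Rn45s). Many genes on this list also respond to other signals, and ERK activity was not measured.

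The core of the RAS-MAPK cascade was split, with 4 of 18 higher, 7 lower and 7 not past the test (median -0.03). After rescaling to a common sum 9 were higher and 4 lower, and after quantile normalization 8 were higher and 7 lower. Mapk3, which encodes ERK1, measured 64.8 ± 0.552 RPKM in low glutamine and 115 ± 5.0 RPKM in control (log2 fold change -0.81, limma adjusted p = 6.1e-08). Map2k2 fell by 0.79 and the scaffold gene Ksr1 by 1.14, and Braf rose by 0.59. The adaptor genes Gab1 and Gab2 rose by 0.29 and 0.24. In the PI3K-AKT list 6 of 11 tested were higher, 3 lower and 2 not past the test (median 0.21). Pik3r1, a regulatory subunit of PI3K, rose by 0.51, the lipid phosphatase gene Inpp4b by 0.70 and Pik3ca by 0.25. Pik3r2, another regulatory subunit, fell by 0.22 and the catalytic subunit gene Pik3cb by 0.15. Neither was called after rescaling to a common sum, where 0 genes of this list were lower.

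**Figure D5:**
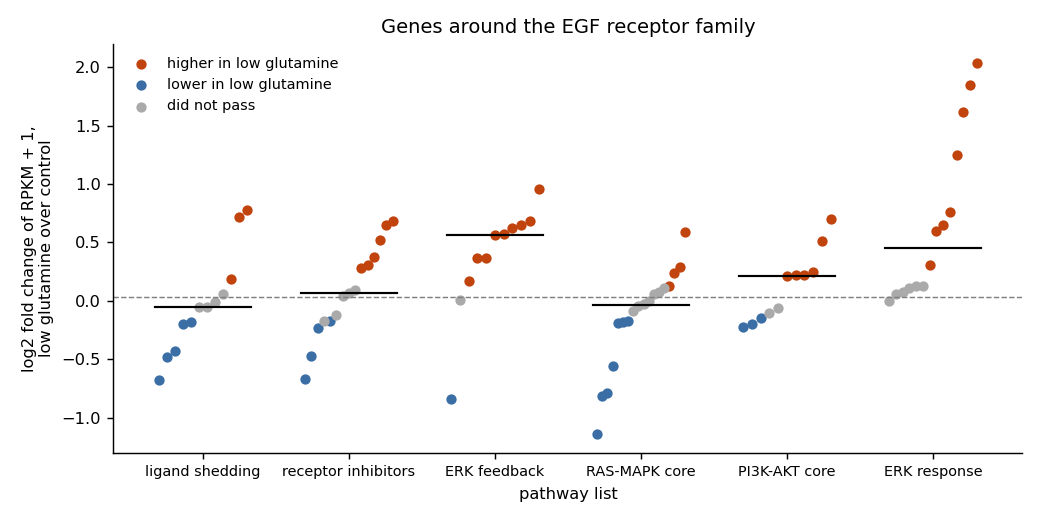
Log2 fold change of RPKM + 1, low glutamine over control, of each tested gene in 6 pathway lists, coloured by whether it passed the test as higher or lower; black bars are list medians and the dashed line is the median of all tested genes (0.03). The lists labelled ERK feedback, which holds negative regulators of the cascade, and ERK response lie mostly above the line, at medians of 0.56 and 0.45.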

How the data were processed

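RNA-seq of 6 organoid libraries was analysed. The deposited RPKM values were made by the authors, 1 column per library. CASAVA 1.8, HISAT2 2.0.4, Partek and the mm10 build appear in the submitters' processing notes, without role or order. How reads were counted, on which annotation and whether by strand is not given in the sources used here, so reads of antisense or overlapping genes cannot be told apart.

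Depth was estimated from low values of single-exon genes, of which 74.1% to 85.2% were whole reads per library within 0.02 of a read, a share that includes the values that set the depth. Estimated reads are approximate, since the authors' transcript lengths were not used here. RPKM are not counts, so no count test was run. limma 3.58.1 (R 4.3.3, variance trend, two-sided) was fitted to log2(RPKM + 1) over all 11082 genes averaging 1 RPKM or more. Another 13874 rows were not tested. A pseudocount of 1 understates changes of low genes. On simulated data for this comparison over 11082 genes, the fit recovered 96 of 100 genes changed 1.5-fold and 98 of 100 changed 2-fold, and called 12 unchanged genes. The changed genes were drawn from those of higher level, all others were left unchanged, and the noise was normal and independent between genes. In the real data 66.4% of tested genes were called, so these rates need not hold there or for low genes. Ratios and shares were compared by exact permutation (scipy 1.17.1). Tables and plots used Python 3.11.15, pandas 2.3.3, numpy 2.4.6 and matplotlib 3.10.9. Gene bounds and promoters are RefSeq's on GRCm38.p6; 24310 rows matched by symbol, 528 by synonym and 118 not at all. Promoter sequences were kept for 7 members: Ereg and Erbb3 had no entry, and chromosome 18, which holds Hbegf, was left out.

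Members and lists were chosen with earlier results of these data known. Named were all members, up to 3 rises and 3 falls past the test per pathway list, 12 fixed pathway genes, and the 2 most alike genes per tested member. The pathway genes named were thus picked for size. Some genes the rule gave are not reported here. The alternatives were other pseudocounts, no filter, 4 scalings, a replicate block, autosomal genes only and leaving out each library. The groups share replicate numbers, and deviations from group means correlated at 0.154, 0.245 and 0.565 between same-numbered libraries, above 0.1 in each, though low glutamine replicate 1 correlated more with control replicate 2 (0.361).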

Additional observations from a re-analysis of the deposited data

How the results depend on the processing

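All 15 other settings kept the direction of the 7 tested members, and Areg, Hbegf, Btc, Egfr and Erbb3 passed the test in each. Tgfa and Erbb2 did not: rescaled to a common sum they were -0.04 and -0.03, and the same without Rn45s -0.01 and -0.01, so that 1 member was called lower. Erbb2 also missed the threshold after quantile normalization (-0.10) and with no filter (-0.15). Leaving out 1 library, Tgfa ranged from -0.17 to -0.13 and Erbb2 from -0.21 to -0.10 on the log2 scale, and the members called lower from 1 to 3. The rescalings to a common sum, without and with Rn45s left out, moved the median of all genes from 0.03 to 0.14 and 0.17, the share of calls that were higher from 54.4% to 69.0% and 71.6%, and the pathway genes called lower to 11 and 11; without Rn45s 6021 genes and 55 pathway genes were called higher. The causes were not tested. Adding 1 RPKM before taking ratios gave differences of 0.19 for Areg to Ereg, 0.79 for Egfr to Erbb2 and 1.51 for Hbegf to Areg. Adam10 was 0.07, 0.10 and 0.09 with rescaling, rescaling without Rn45s and quantile normalization, against -0.09 with median-of-ratios scaling, and Rhbdl2 was -0.02 with quantile normalization. With the replicate number as a block, 4192 genes were higher and 3544 lower, the 7 members kept their calls (Areg -0.60, Hbegf 0.91), and of the pathway genes named Egr1 alone changed side. The depth leaves Epgn at about 0.943 to 2.06 reads per low glutamine library, depending on the transcript length taken, so its fold is imprecise.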
